A study of Mus musculus with 17 samples.

Results

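Dlx6os1, an antisense long non-coding RNA of the Dlx5/Dlx6 locus, was measured in mouse hippocampus together with the genes of both Dlx loci (Dlx1, Dlx2, Dlx5 and Dlx6) and 4 further transcription factors of GABAergic interneurons (Sp9, Lhx6, Sox6 and Satb1). These 9 genes were taken by symbol from the 55385 rows of the deposited tables, where they fill 10 rows. A second Dlx6os1 row, a short RNA annotated as misc_RNA, held 3 counts over all libraries together and was not tested. The other 9 rows passed the filter on low counts, among 18983 tested genes. Dlx6os1 was chosen by its read counts in the duplication groups against WT, where it was higher, and the rest were added as its relatives with earlier results of these data known. Their values against WT are therefore given as a description, without p-values.

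Polyadenylated RNA of the brain hippocampus was sequenced from 17 adult mice, 1 library per mouse. Dp16_2xIFNRs mice (n = 5, 3 females and 2 males, 17.7 to 18.0 weeks old) carry the Dp16 duplication, but their interferon receptor genes, which lie inside it, are back at the normal dosage. Dp16 mice (n = 6, 3 females and 3 males, 17.1 to 18.0 weeks old), a Down syndrome model, carry an extra copy of a segment of chromosome 16 whose counterpart lies on human chromosome 21. WT mice (n = 6, 3 females and 3 males, 17.1 to 18.0 weeks old) were C57BL/6J, and the labels name a strain for this group only. Both groups with the duplication carry it in every cell, and 0 of the 9 genes lie on chromosome 16. In whole tissue, fewer cells of a type and less RNA per cell cannot be told apart.

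Dlx genes encode homeodomain transcription factors that are switched on in precursors of the embryonic ventral forebrain and are needed for the birth and migration of GABAergic interneurons, the inhibitory cells of the hippocampus. They stand in the genome as convergent pairs, with enhancers between the partners that DLX proteins bind. Dlx6os1, also known as Evf2, is transcribed across Dlx6 on the opposite strand, and in mice its loss disturbs interneuron formation in the young hippocampus. Lhx6, a LIM homeodomain factor, acts after the Dlx genes in cells from the medial ganglionic eminence, and Sox6 and Satb1 act in the same lineage, from which parvalbumin and somatostatin interneurons arise. Sp9 is a zinc finger factor of the ganglionic eminences.

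In GRCm38, with positions from GENCODE release M21, Dlx6os1 (ENSMUSG00000090063.6) lies at chr6:6820189-6871592 on the minus strand and spans 51404 bases. Dlx6 (ENSMUSG00000029754.13, chr6:6863334-6868568, plus strand) lies wholly inside that span, in its introns, since 0 exon bases overlap. Dlx5 (ENSMUSG00000029755.10, chr6:6877805-6882085, minus strand) follows 9236 bases after Dlx6. The Dlx1/Dlx2 locus has the same arrangement. Dlx1 (ENSMUSG00000041911.3, chr2:71528113-71533981, plus strand) and Dlx2 (ENSMUSG00000023391.8, chr2:71543408-71546754, minus strand) point at each other across 9426 bases. An antisense RNA, Dlx1as (ENSMUSG00000084946.2, chr2:71516454-71537891, minus strand), spans Dlx1 there and shares 335 exon bases with it, 6.208% of the Dlx1 exons and 20.552% of its own. Sp9 (ENSMUSG00000068859.5, chr2:73271925-73284706, plus strand) lies 1.73 Mb beyond Dlx2, and 5.353% of its exon bases overlap the opposite gene Cir1. Lhx6 (ENSMUSG00000026890.19) stands at chr2:36081953-36105408, Sox6 (ENSMUSG00000051910.13) at chr7:115470872-116038796 and Satb1 (ENSMUSG00000023927.15) at chr17:51736187-51833290, all on the minus strand. The library kit marks strand, and whether the counting used it is not given in the sources used here. Values of Dlx1 and Dlx1as are therefore less certain where their exons overlap. The same holds for Dlx6os1, which shares 207 exon bases (4.002%) with Gm27905 and 180 (3.48%) with Gm27699 on the other strand. Dlx6 likewise shares 104 exon bases (4.379%) with Dlx6os2 on the other strand.

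The sequences around the Dlx6os1 starts are shown because this gene stood apart from its neighbours, with the Dlx1 start beside them as a gene of the same family. They are RefSeq windows of GRCm38.p6, from 250 bases before to 50 bases after an annotated start, read 5′ to 3′ along the gene. Capitals mark TAATTA, the core sequence that many homeodomain proteins bind, which is its own reverse complement and was searched in the whole window.
Dlx6os1 start 1, chr6:6869484-6869783, minus strand: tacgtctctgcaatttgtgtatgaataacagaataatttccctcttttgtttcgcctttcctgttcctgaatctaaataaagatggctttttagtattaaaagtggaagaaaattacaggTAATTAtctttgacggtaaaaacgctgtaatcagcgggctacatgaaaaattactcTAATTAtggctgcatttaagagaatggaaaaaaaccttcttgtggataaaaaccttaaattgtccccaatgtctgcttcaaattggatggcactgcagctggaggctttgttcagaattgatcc
Dlx6os1 start 2, chr6:6861634-6861933, minus strand: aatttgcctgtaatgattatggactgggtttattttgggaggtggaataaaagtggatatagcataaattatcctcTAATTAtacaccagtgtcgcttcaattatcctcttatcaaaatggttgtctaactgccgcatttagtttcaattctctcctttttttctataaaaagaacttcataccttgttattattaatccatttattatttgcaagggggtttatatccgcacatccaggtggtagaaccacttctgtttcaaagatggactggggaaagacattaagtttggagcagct
Dlx1, chr2:71529195-71529494, plus strand: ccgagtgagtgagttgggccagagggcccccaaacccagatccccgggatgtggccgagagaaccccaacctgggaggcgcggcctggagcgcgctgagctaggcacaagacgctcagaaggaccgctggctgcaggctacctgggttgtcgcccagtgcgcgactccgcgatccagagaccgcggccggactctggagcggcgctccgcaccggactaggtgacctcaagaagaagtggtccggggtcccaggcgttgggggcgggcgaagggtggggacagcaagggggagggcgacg
The first base is chr6:6869533 at start 1 and chr6:6861683 at start 2, both inside the GENCODE span of Dlx6os1. On the minus strand, a transcript from start 2 runs away from Dlx6 and does not cross it. The counts are per gene and do not separate the starts. The first Dlx6os1 window held 2 matches and the second held 1. Among all 32851 windows of the RefSeq table, 5.29% held at least 1 match and 0.49% at least 2. Both Dlx6os1 windows were poor in G and C, with 35.7% at the first start and 35.3% at the second, and among all windows under 40% in G and C, 18.4% held a match. The Dlx1 window had 69.3% G and C, 27 CpG pairs and 0 matches. RefSeq windows were found for 7 of the 9 symbols, 19 windows in all, and the other 17 outside Dlx6os1 held 0 matches. A match describes these letters only and is not evidence that a factor binds.

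Library totals were similar, from 30.7 to 31.6 M counts (M, mega) for Dp16_2xIFNRs, from 30.4 to 33.1 M for Dp16 mice and from 30.4 to 32.9 M for WT mice. Levels below are in CPM, the counts per mega-count after TMM scaling, unless RPKM is named. Markers of the choroid plexus, a tissue next to the hippocampus, were low in 3 libraries, 1 in each group (summed level 337 CPM in Dp16_2xIFNRs replicate 5, 269 CPM in Dp16 replicate 6 and 226 CPM in WT replicate 6), against 3400 to 8750 CPM in the other 14. Markers of thalamus and habenula summed to 640 CPM in WT replicate 4, against 165 to 246 CPM in the other 16. Markers of excitatory hippocampal neurons summed to 4390 CPM or more in every library. The replicates are separate mice by their identifiers, and the p-values measure the spread between them.

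Dlx6os1 was the gene of the 9 whose levels with the duplication stood apart from WT. It had 28, 27.9, 30.7, 31.0 and 32.2 CPM in the Dp16_2xIFNRs mice, and 26.7, 29.2, 26.7, 30.1, 25.3 and 27.1 CPM in the Dp16 mice. In WT mice it had 19.8, 23.0, 16.4, 18.5, 14.7 and 24.2 CPM. Every one of the 11 mice with the duplication lay above every WT mouse, and both duplication groups overlapped each other. Such a separation was found in 0.443% of all tested genes, 84 in number, of which 29 lay outside chromosome 16. Since Dlx6os1 was chosen by these values, nothing is read from that share. The spread was wider in WT, with an SD of 3.69 CPM, than with the duplication, with 1.93 CPM in Dp16_2xIFNRs and 1.79 CPM in Dp16. Each value rests on 472 to 1005 reads, a counting error of about 3.52% at the mean.

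The log2 fold change of Dlx6os1 was 0.62 ± 0.104 (SE) in Dp16_2xIFNRs against WT, a fold of 1.54, and 0.50 ± 0.0995 in Dp16 against WT, a fold of 1.42. These 2 comparisons share the WT mice. By edgeR's quasi-likelihood test with an adjusted p under 0.05 over all genes, 1 of the 9 genes was called in each, Dlx6os1, in its higher direction. The background was 0.98% of all tested genes called in Dp16_2xIFNRs against WT and 0.537% in Dp16 against WT. Since this contrast chose the gene, nothing is read from these counts. Nor is anything read from the calls kept or lost in the alternative settings, which reuse the same mice. The call in Dp16_2xIFNRs against WT was kept in all 34 alternative settings, with log2 fold changes between 0.54 and 0.70. In Dp16 against WT it was lost in 7 of 34, with 0.46 without WT replicate 3, 0.48 without Dp16 replicate 2 and 0.47 without Dp16 replicate 4. It was also lost with the groups fitted alone (0.50), with the identifier series (0.44), with the slope on transcript length (0.40) and with the thalamus level (0.47) in the model.

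The splits and refits in this paragraph reuse the values that chose Dlx6os1, so nothing is read from them. In both sexes the means of the duplication groups lay above WT. Male mice had a mean Dlx6os1 level of 30.8 CPM in Dp16_2xIFNRs (n = 2), 27.5 CPM in Dp16 (n = 3) and 19.1 CPM in WT (n = 3). Female mice had 29.4, 27.6 and 19.7 CPM in the same groups (n = 3 each). The mouse identifiers in the labels fall into 3 number series whose meaning is not given. In the largest series the means were 30.4 CPM in Dp16_2xIFNRs (n = 3), 26.4 CPM in Dp16 (n = 3) and 19.6 CPM in WT (n = 4). In the next they were 29.3 CPM (n = 2), 26.7 CPM (n = 1) and 19.2 CPM (n = 2), and the last held 2 Dp16 mice only, with a mean of 29.7 CPM. Without the 3 libraries low in choroid plexus markers, the log2 fold changes were 0.67 in Dp16_2xIFNRs against WT and 0.58 in Dp16 against WT. A slope of expression on transcript length, fitted per library, ran from -0.0478 to 0.0576 (median 0.0121) in Dp16_2xIFNRs, from -0.0737 to 0.159 (0.0289) in Dp16 and from -0.132 to 0.0244 (-0.0427) in WT. With this slope in the model, the log2 fold change of Dlx6os1 was 0.55 in Dp16_2xIFNRs against WT and 0.40 in Dp16 against WT.

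Dlx6, which shares the Dlx6os1 span on the other strand, was not called with it. Dlx6 had 6.6, 5.67, 3.97, 5.37 and 4.88 CPM in Dp16_2xIFNRs, 4.72 to 7.13 CPM (median 5.69) in Dp16 and 4.19 to 6.68 CPM (median 6.27) in WT. The 3 groups overlapped throughout. Its log2 fold change was -0.15 ± 0.134 in Dp16_2xIFNRs against WT and 0.02 ± 0.127 in Dp16 against WT. Dlx5, the homeodomain partner at the locus, was the lowest in counts of the 9 genes, with 66 to 137 reads per library. It had 3.88, 3.15, 3.71, 3.62 and 3.18 CPM in Dp16_2xIFNRs, 2.73 to 4.35 CPM (median 3.14) in Dp16 and 2.04 to 3.73 CPM (median 3.34) in WT. Its log2 fold changes were 0.16 ± 0.153 and 0.07 ± 0.146 in the same 2 comparisons, close to 1 SE or under it. At this depth a counting error of 9.73% limits what can be seen for Dlx5.

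Set against its neighbours in the same library, the mean of Dlx6os1 was higher with the duplication, and the ranges overlapped for each of 3 Dlx genes compared. The log2 ratio of Dlx6os1 to Dlx6, in CPM, was 2.518 ± 0.342 (SD) in Dp16_2xIFNRs, 2.242 ± 0.242 in Dp16 and 1.746 ± 0.403 in WT. One WT mouse reached 2.533, so these ranges overlapped. The log2 ratio to Dlx5 ran from 2.85 to 3.344 in Dp16_2xIFNRs, from 2.638 to 3.462 in Dp16 and from 1.976 to 3.278 in WT, where the highest WT mouse lay above 4 of 5 Dp16_2xIFNRs mice and 5 of 6 Dp16 mice. The log2 ratio to Dlx1 was 0.558 ± 0.191 in Dp16_2xIFNRs, 0.333 ± 0.084 in Dp16 and -0.154 ± 0.306 in WT, with WT mice up to 0.342 and duplication mice down to 0.231. Against the mean of Gad1, Gad2 and Slc32a1, the enzymes that make GABA and the transporter that loads it into vesicles, the log2 ratio ran from -2.821 to -2.507 in Dp16_2xIFNRs, from -2.9 to -2.738 in Dp16 and from -3.575 to -2.939 in WT. On this scale every duplication mouse lay above every WT mouse. These ratios contain the same Dlx6os1 values as above and are no second test of them.

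**Figure D1:**
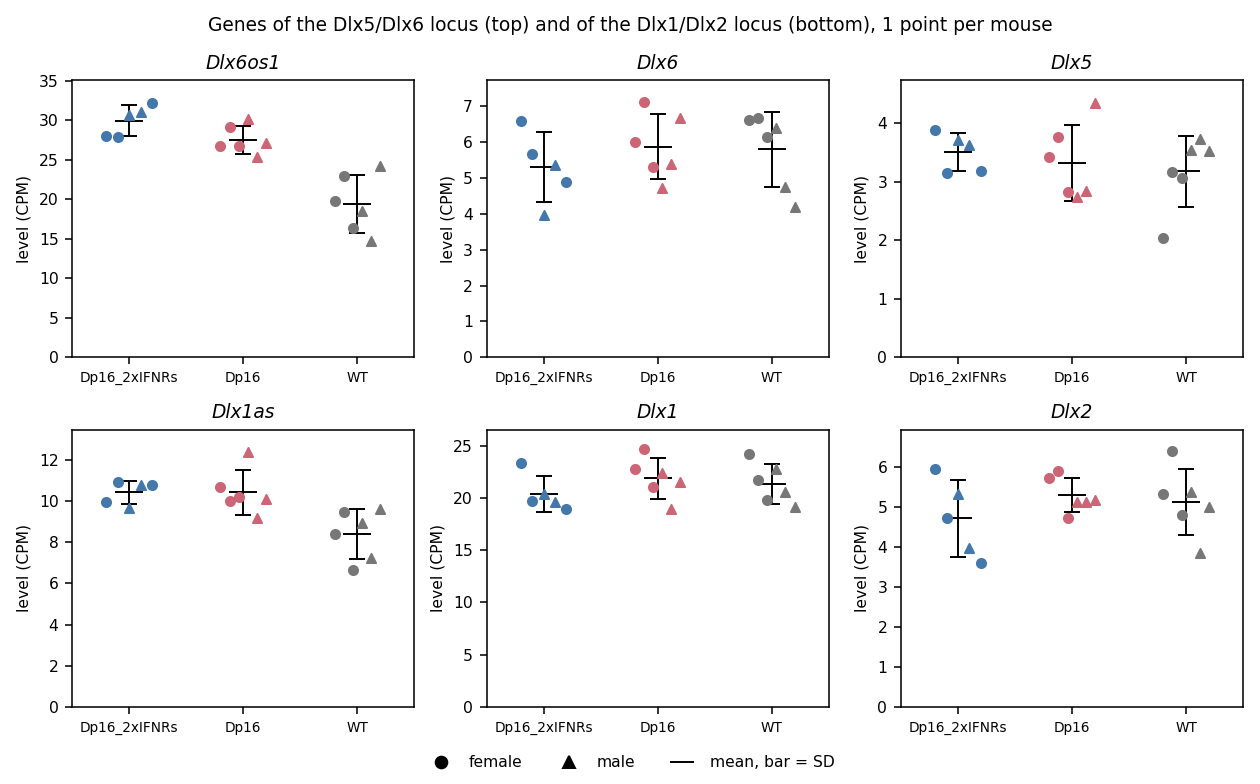
Levels in CPM (vertical axes, from 0) of Dlx6os1, Dlx6 and Dlx5 of the locus on chromosome 6 (top) and of Dlx1as, Dlx1 and Dlx2 of the locus on chromosome 2 (bottom), by genotype. Each point is 1 mouse, circles are females and triangles males, and lines give the mean with SD. For Dlx6os1 all 11 duplication mice lie at 25.3 CPM or above and all 6 WT mice at 24.2 CPM or below, while for Dlx6, Dlx5, Dlx1 and Dlx2 the groups overlap.

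At the other locus, the antisense RNA Dlx1as was not one of the 9 genes. It was singled out after its values were seen, so these are given as a description only. It had 9.96, 10.9, 9.68, 10.8 and 10.8 CPM in Dp16_2xIFNRs, 9.16 to 12.4 CPM (median 10.1) in Dp16 and 6.67 to 9.62 CPM (median 8.67) in WT. The Dp16_2xIFNRs mice all lay above the WT mice, which was the case for 1.2% of all tested genes, and the Dp16 mice overlapped WT. Since the gene was picked for these values, nothing is read from that share. Its log2 fold change was 0.32 ± 0.101 in Dp16_2xIFNRs against WT and 0.31 ± 0.0965 in Dp16 against WT. The edgeR test called it in neither, and nothing is read from that for a gene picked by its values.

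Dlx1 was the most steady of the 9 genes, with a coefficient of variation of 8.78% in CPM over all mice. It had 23.3, 19.7, 20.4, 19.6 and 18.9 CPM in Dp16_2xIFNRs, 18.9 to 24.7 CPM (median 22) in Dp16 and 19.1 to 24.2 CPM (median 21.2) in WT. Its log2 fold change was -0.08 ± 0.0764 in Dp16_2xIFNRs against WT and 0.03 ± 0.0724 in Dp16 against WT. Dlx2, its homeodomain partner, had 5.95, 4.72, 5.33, 3.97 and 3.59 CPM in Dp16_2xIFNRs, 4.73 to 5.9 CPM (median 5.15) in Dp16 and 3.85 to 6.39 CPM (median 5.15) in WT. The groups overlapped for both genes. The log2 fold changes of Dlx2 were -0.13 ± 0.135 and 0.05 ± 0.128 in the same 2 comparisons.

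Sp9 had 7.6, 7.05, 7.74, 6.35 and 6.38 CPM in Dp16_2xIFNRs mice and 8.63, 8.26, 8.29, 8.01, 8.13 and 8.44 CPM in Dp16 mice. WT mice had 6.43 to 9.16 CPM (median 8.2), a range that covered all but 2 mice of the other groups. All 5 Dp16_2xIFNRs mice lay below all 6 Dp16 mice, which was the case for 0.358% of all tested genes. The log2 fold change in Dp16_2xIFNRs against Dp16 was -0.24 ± 0.0922 (95% interval -0.44 to -0.05), and its unadjusted edgeR p was 0.0163. Of all tested genes, 10.5% had an unadjusted p under 0.05. After adjustment Sp9 did not pass (edgeR adjusted p = 0.436), nor did it in any of 34 alternatives, where the adjusted p ran from 0.185 to 0.909. In the largest identifier series the means were 6.6 CPM in Dp16_2xIFNRs and 8.4 CPM in Dp16 (n = 3 each). The SD of Sp9 in Dp16, 0.219 CPM on a mean of 8.29 CPM, was smaller than its counting error of 6.33% per library.

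Lhx6, Sox6 and Satb1, the factors of the medial ganglionic eminence lineage, overlapped between all groups. Lhx6 had 17.5, 19.5, 16.8, 19.9 and 21.5 CPM in Dp16_2xIFNRs, 19.5 to 23.4 CPM (median 20.3) in Dp16 and 15.1 to 21.2 CPM (median 20.7) in WT. Sox6, an SRY-related factor that oligodendrocyte precursors also express, had 21.0, 21.9, 21.2, 25.1 and 23.4 CPM in Dp16_2xIFNRs, 22.1 to 27.7 CPM (median 24.5) in Dp16 and 19.1 to 26.6 CPM (median 22.5) in WT. Satb1, a chromatin organiser that is not restricted to interneurons, had 121, 95.8, 88.5, 120 and 117 CPM in Dp16_2xIFNRs, 117 to 136 CPM (median 121) in Dp16 and 87.4 to 160 CPM (median 124) in WT. The SD of Satb1 was 15.1 CPM in Dp16_2xIFNRs, 7.32 CPM in Dp16 and 24.2 CPM in WT, and WT replicate 4, the library high in thalamus markers, was its lowest WT value. The log2 fold changes against WT were -0.01 ± 0.0944 (Dp16_2xIFNRs) and 0.13 ± 0.0897 (Dp16) for Lhx6. For Sox6 they were -0.02 ± 0.0912 and 0.10 ± 0.0866, and for Satb1 -0.23 ± 0.115 and -0.03 ± 0.108.

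**Figure D2:**
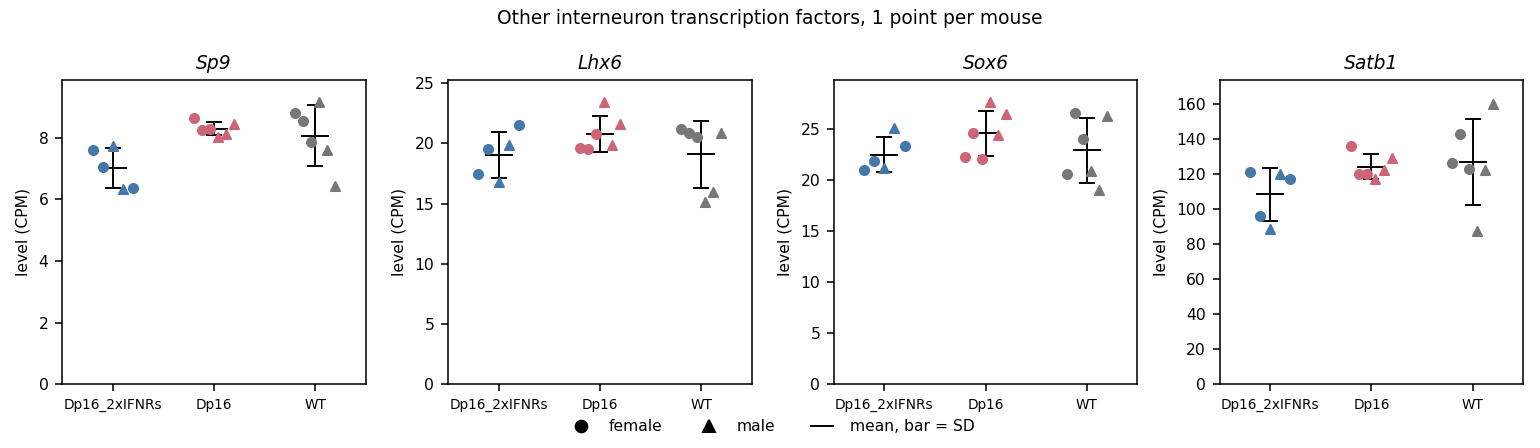
Levels in CPM (vertical axes, from 0) of Sp9, Lhx6, Sox6 and Satb1 by genotype, 1 point per mouse, with circles for females, triangles for males and lines for the mean with SD. For Sp9 the Dp16_2xIFNRs mice lie between 6.35 and 7.74 CPM and the Dp16 mice between 8.01 and 8.63 CPM, while the WT mice spread from 6.43 to 9.16 CPM.

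The comparison of Dp16_2xIFNRs with Dp16, which asks whether the interferon receptor dosage alters these genes in mice with the duplication, did not choose them and was tested. By edgeR with adjusted p under 0.05, 0 of the 9 genes were called, against 0.0158% of all tested genes (3). An unadjusted p under 0.05 was reached by 1 of 9, Sp9, and by 10.5% of all tested genes. DESeq2 also called 0 of the 9. Dlx6os1 differed by 0.12 ± 0.103 on the log2 scale (95% interval -0.10 to 0.34, edgeR adjusted p = 0.667), an interval that holds 0 as well as an increase of 0.34. An exact two-sided permutation test of its log2 CPM in these 2 groups alone gave a difference of 0.12 and p = 0.0693 (n = 5 and 6). The smallest p this design allows is 0.00433. On log2(RPKM + 0.1) the difference was 0.15 and the exact permutation p = 0.026. Leaving out 1 mouse at a time gave exact permutation p between 0.0476 and 0.152, and 0.0476 was reached without Dp16 replicate 2, Dp16 replicate 4, Dp16_2xIFNRs replicate 1 or Dp16_2xIFNRs replicate 2. The other 7 genes had edgeR adjusted p between 0.537 (Satb1) and 0.844 (Dlx5), with 95% intervals inside -0.46 to 0.41. Of the 9 log2 fold changes, 2 were positive (Dlx6os1 and Dlx5) and the median was -0.14, against 47.9% positive and a median of -0.01 over all tested genes.

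**Figure D3:**
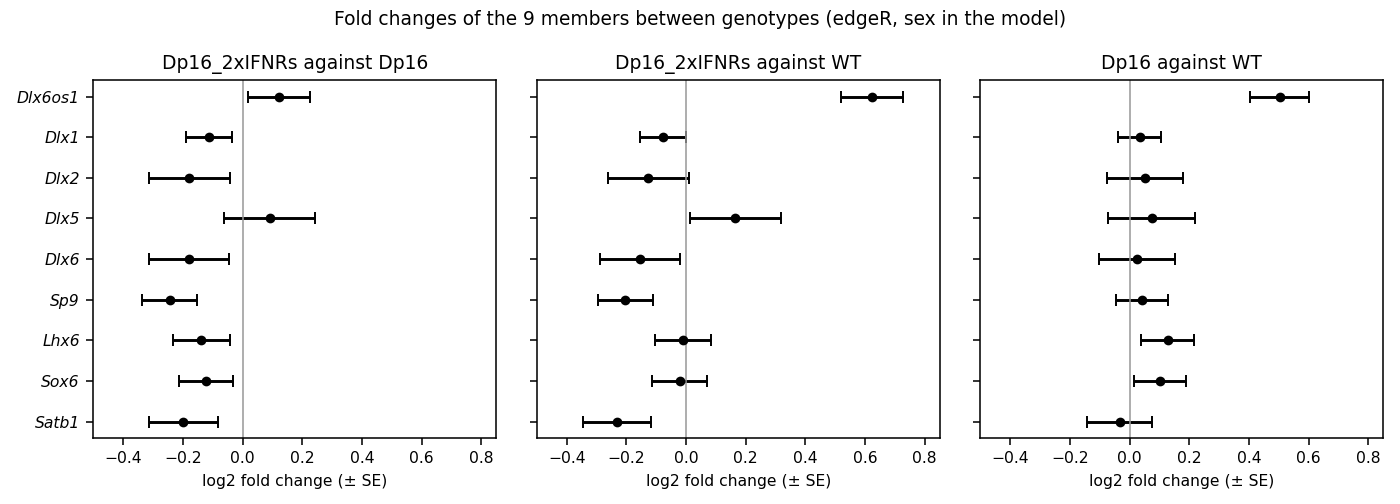
Log2 fold changes (horizontal axes) with SE of the 9 genes, listed down the page, in 3 comparisons from 1 edgeR model with sex. Dlx6os1 lies at 0.62 in Dp16_2xIFNRs against WT and 0.50 in Dp16 against WT, to the right of the other 8 genes, which stay between -0.24 and 0.16 in all 3 comparisons. The 3 comparisons share their groups.

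Against WT, 2 of the 9 log2 fold changes were positive in Dp16_2xIFNRs and 8 of 9 in Dp16, with medians of -0.08 and 0.05. Over all tested genes 51.1% were positive in Dp16_2xIFNRs and 48.1% in Dp16. An unadjusted p under 0.05 was reached by 2 of the 9 genes in Dp16_2xIFNRs and 1 of 9 in Dp16, against 17% and 9.58% of all tested genes, and nothing is read from these counts since the same contrasts chose the genes. Between the sexes, 0 of the 9 genes were called by edgeR in male against female mice, where the background was 0.0685% of all tested genes. DESeq2 also called 0 of the 9. Dlx6 had the lowest unadjusted p, 0.0303, with a mean of 5.18 CPM in males (n = 8) and 6.11 CPM in females (n = 9) and its log2 fold change was -0.25 ± 0.108 (adjusted p = 1.0 by edgeR). An unadjusted p under 0.05 was reached by 3.26% of all genes. Dlx6os1 differed by 0.00 ± 0.0836 between the sexes, with a mean of 25.2 CPM in males and 25.6 CPM in females (edgeR adjusted p = 1.0).

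Levels per length were compared in the deposited RPKM, which divide the reads by gene length. Satb1 stood highest, at 10.4 RPKM on average over all 17 mice (7.86 to 13.5), above Dlx6os1 in 17 of 17 mice. Dlx6os1 followed with 5.5 RPKM (3.22 to 6.89), Lhx6 with 5.31 RPKM (4.24 to 6.14) and Dlx1 with 5.17 RPKM (4.52 to 5.99). These 3 could not be put in order, since Dlx6os1 exceeded Lhx6 in 11 of 17 mice and Lhx6 exceeded Dlx1 in 10 of 17. Dlx1 lay above Dlx6 in 17 of 17 mice, with ranges that did not touch. Dlx6 (2.56 RPKM), Sox6 (2.5 RPKM), Dlx5 (2.34 RPKM), Dlx2 (2.05 RPKM) and Sp9 (1.74 RPKM) formed a lower set with overlapping ranges. Within the genotypes, the place of Dlx6os1 moved. It averaged 6.55 ± 0.381 RPKM in Dp16_2xIFNRs and 5.91 ± 0.361 RPKM in Dp16, above Dlx1 (5.0 and 5.27 RPKM), but 4.22 ± 0.768 RPKM in WT, below Dlx1 (5.21 RPKM). Among all tested genes, the 9 stood between the percentiles 34.0 (Sp9) and 68.9 (Satb1).

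**Figure D4:**
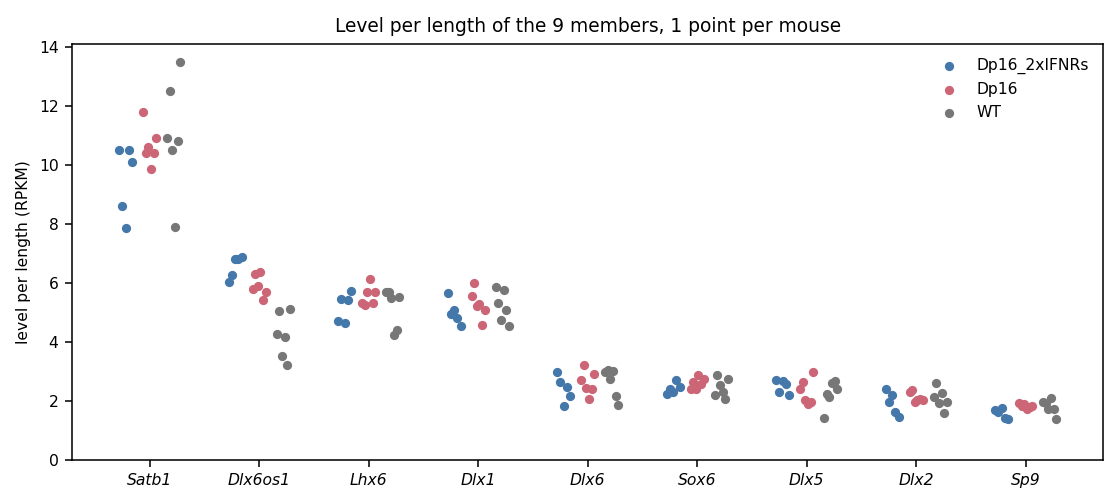
Level per length in RPKM (vertical axis, from 0) of the 9 genes in order of their mean, 1 point per mouse, coloured by genotype with Dp16_2xIFNRs left, Dp16 in the middle and WT right. Satb1 lies above the rest in each mouse, and Dlx6os1 is the gene whose WT points (3.22 to 5.11 RPKM) lie apart from those with the duplication (5.42 to 6.89 RPKM).

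Whether the genes varied together between mice of the same genotype and sex was asked over all 36 pairs, after centring log2 CPM within each genotype and sex (17 mice, permutation test of 100000 shuffles within these cells). After Benjamini-Hochberg adjustment, 0 of 36 pairs passed, and 6 had an unadjusted p under 0.05. Dlx1 and Sp9, both on chromosome 2, had the lowest p (Pearson r = 0.654, permutation p = 0.00622, adjusted 0.224; Spearman rho = 0.669, permutation p = 0.013, adjusted 0.264), and r was 0.615 without the 2 mice farthest out in Dlx1. Sp9 and Lhx6 had the strongest negative value (r = -0.837, permutation p = 0.0166, adjusted 0.262; rho = -0.716, permutation p = 0.0354, adjusted 0.264). It was -0.684 without the 2 farthest mice and -0.454 when centred by genotype alone. Lhx6 and Sox6 had r = 0.705 (permutation p = 0.0248, adjusted 0.262) and rho = 0.598 (permutation p = 0.0544, adjusted 0.264), and r was 0.571 without the 2 farthest mice. Without the 3 libraries low in choroid plexus markers it was 0.383 (permutation p = 0.419, adjusted 0.785).

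For Dlx6os1 and the coding genes of its own locus, no pair passed and the sign for Dlx6 depended on the libraries used. The r of Dlx6os1 was -0.167 with Dlx6 (permutation p = 0.733, adjusted 0.851; rho = -0.137, permutation p = 0.684, adjusted 0.778) and -0.0797 with Dlx5 (permutation p = 0.817, adjusted 0.872; rho = -0.125, permutation p = 0.692, adjusted 0.778). Without the 2 farthest mice these were -0.0587 and -0.0379. Without the 3 libraries low in choroid plexus markers they were 0.419 with Dlx6 (permutation p = 0.17, adjusted 0.611; rho = 0.486) and 0.0206 with Dlx5. With Sox6 it had r = 0.74 (permutation p = 0.0371, adjusted 0.262; rho = 0.608, permutation p = 0.0452, adjusted 0.264), which was 0.508 without the 2 farthest mice. That value was also 0.503 without the 3 libraries low in choroid plexus markers. Values of 1 mouse come from 1 library and share its depth and tissue makeup, and the part of these in the pairs was not tested. With the genes of the other locus, the r of Dlx6os1 was 0.0468 for Dlx1 and 0.309 for Dlx2. Without the 3 libraries low in choroid plexus markers these were 0.609 (permutation p = 0.105, adjusted 0.541) and 0.65 (permutation p = 0.0522, adjusted 0.373). The pairs among Dlx1, Dlx2, Dlx5 and Dlx6 had r from 0.101 (Dlx1 with Dlx5) to 0.574 (Dlx1 with Dlx2). Centred by genotype alone, Dlx1 with Dlx5 was -0.0109 and Dlx5 with Dlx6 0.0484, and without the 3 libraries low in choroid plexus markers they were -0.0576 and 0.243.

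**Figure D5:**
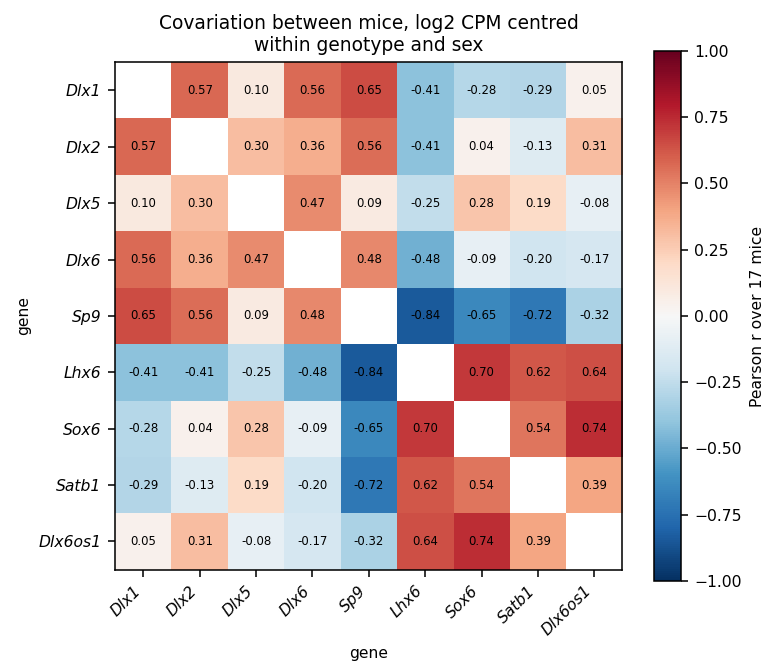
Pearson r of log2 CPM, centred within genotype and sex, for each pair of the 9 genes over 17 mice, as a symmetric matrix with red for positive and blue for negative values. Sp9 with Lhx6 is the lowest at -0.837 and Dlx6os1 with Sox6 the highest at 0.74, and 0 of the 36 pairs passed after adjustment.

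Among 13663 named genes with at least 1 CPM on average, those most like Dlx6os1 in the same centred values were Tmod2 (r = 0.953), Appl1 (0.946), Slc24a2 (0.946), Pak3 (0.944) and Map2 (0.935), over 17 mice. These r values are the top of a ranking and are given without a test. The log2 fold changes of these genes were far smaller than that of Dlx6os1. Tmod2, which caps actin filaments, had 0.13 in Dp16_2xIFNRs against WT and 0.18 in Dp16 against WT, and Map2, a microtubule protein of dendrites, had 0.08 and 0.14. The genes most like Dlx1 were Slc11a1 (0.871), Mrps2 (0.854), Slc33a1 (0.844) and Pgbd1 (0.833).

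The remaining genes of the interneuron programme were read as lists against all tested genes. Of 24 other interneuron transcription factors, 22 were tested, and edgeR called 0 in Dp16_2xIFNRs against WT, 0 in Dp16 against WT and 0 in Dp16_2xIFNRs against Dp16, where 0.98%, 0.537% and 0.0158% of all tested genes were called. At these rates a count of 0 in a short list sets it apart from no other genes. Their median log2 fold changes were 0.02, 0.06 and -0.03 in these comparisons, with 12, 16 and 10 of 22 positive. Over all tested genes the medians were 0.00, -0.01 and -0.01, and 51.1%, 48.1% and 47.9% were positive. The most highly expressed per length were Zeb2 (23.1 RPKM), Bcl11b (19.5 RPKM), Etv1 (19.0 RPKM), Nr2f1 (16.3 RPKM), Meis2 (14.7 RPKM) and Prox1 (10.9 RPKM). Prox1 and Bcl11b are also factors of hippocampal granule cells. Nr2f1, a nuclear receptor of caudally derived interneurons, averaged 67.7 ± 4.4 CPM in Dp16_2xIFNRs, 71.8 ± 4.56 CPM in Dp16 and 80.6 ± 7.65 CPM in WT. Its log2 fold change was -0.25 ± 0.064 in Dp16_2xIFNRs against WT (edgeR adjusted p = 0.0751), and DESeq2 called it, with Meis2. Meis2, a homeodomain partner of Dlx proteins, had -0.32 ± 0.0964 (edgeR adjusted p = 0.118). The markers of thalamus and habenula were also lower in Dp16_2xIFNRs against WT by their median, -0.65 over 9 tested genes with 1 positive. They summed to 167 to 197 CPM in Dp16_2xIFNRs and 179 to 640 CPM in WT, and WT replicate 4 was the mouse at 640 CPM. With the summed thalamus level in the model, chosen after seeing the data, edgeR called Nr2f1 and did not call Meis2.

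The 4 genes of GABA synthesis and transport summed to 983 to 1090 CPM in Dp16_2xIFNRs, 1030 to 1180 CPM in Dp16 and 944 to 1120 CPM in WT. Gad1, which makes most of the GABA of the brain, averaged 351 ± 20.9 CPM, 376 ± 28.1 CPM and 362 ± 19.9 CPM in these groups, and edgeR called 0 of the 4 genes in each comparison of genotypes, beside the same shares of all genes as above. Their medians were 0.00 in Dp16_2xIFNRs against WT, 0.09 in Dp16 against WT and -0.09 in Dp16_2xIFNRs against Dp16, with 2, 4 and 0 of 4 positive. The 20 markers of interneuron subtypes had medians of 0.06 in Dp16_2xIFNRs against WT, 0.21 in Dp16 against WT and -0.11 in Dp16_2xIFNRs against Dp16, with 14, 16 and 4 of 20 positive, against 51.1%, 48.1% and 47.9% of all tested genes. edgeR called 0 of the 20 in each, against 0.98%, 0.537% and 0.0158% of all tested genes. Pvalb, the calcium buffer of fast-spiking cells, averaged 33.6 ± 7.45 CPM in Dp16_2xIFNRs, 36.4 ± 5.35 CPM in Dp16 and 53.1 ± 16.6 CPM in WT. Its log2 fold change was -0.65 ± 0.181 in Dp16_2xIFNRs against WT (edgeR adjusted p = 0.0922), which DESeq2 called, and -0.54 ± 0.169 in Dp16 against WT (edgeR adjusted p = 0.26). Without a filter, edgeR called Pvalb in both comparisons, and without Dp16_2xIFNRs replicate 1 in Dp16_2xIFNRs against WT. The main fit did not call it, and neither did the fits with the thalamus level in the model or without WT replicate 4. WT replicate 4 was the mouse with the highest thalamus sum. Since the main fit did not call Pvalb either, the lack of a call in those fits shows nothing about thalamus tissue. The part of thalamus tissue in the Pvalb difference was not tested. Cort, a peptide related to somatostatin and named here after its values were seen, averaged 7.77 ± 1.17 CPM in Dp16_2xIFNRs, 8.5 ± 1.18 CPM in Dp16 and 5.67 ± 1.85 CPM in WT. Its log2 fold change was 0.47 ± 0.176 in Dp16_2xIFNRs against WT (edgeR adjusted p = 0.188) and 0.59 ± 0.166 in Dp16 against WT (edgeR adjusted p = 0.175), which DESeq2 called. Sst, the peptide of the other large class of that lineage, averaged 207 ± 25 CPM, 232 ± 9.34 CPM and 223 ± 43.8 CPM in the 3 groups.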

How the data were processed

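Per the labels' protocols, RNA was extracted with TRIzol, enriched for polyadenylated RNA, made into strand-specific libraries (Tecan/Nugen Universal Plus mRNA kit) and sequenced as pairs of 150 bases. The submitters' processing notes name HISAT2 2.1.0 and HTSeq 0.6.1, beside SAMtools 1.5, FastQC 0.11.5 and bcl2fastq, and the build GRCm38. Raw counts of each gene in 17 libraries were deposited. The authors also deposited RPKM values. For 19717 genes these equalled the counts divided by library total and 1 length per gene (largest relative spread of that length 4.72e-14). The length definition and the strand setting of the counting are not given in the sources used here. The tables' names give GENCODE release M24, and positions came from M21.

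filterByExpr at a minimum count of 10 retained 18983 of the 55385 genes. Libraries were scaled by TMM in edgeR 4.0.16 (R 4.3.3), and 1 quasi-likelihood model (genotype, sex; 13 residual degrees of freedom) took in all 17 libraries. P-values were adjusted by Benjamini-Hochberg over all tested genes and called under 0.05. The common biological coefficient of variation was 14.1%. Log2 CPM used a prior count of 2. SE is the log2 fold change divided by the root of its F value, and intervals are 95%. Counting errors cover counting only, since the protocols name no molecular identifiers. The fit was tested on simulated counts before use. Permutation tests used SciPy 1.17.1.

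The genes and the 12 context lists (121 entries) were chosen with earlier results of these data known, so no list supports another result. All 9 genes were named. From a context list, called genes and then those highest in RPKM were named, up to 6. Dlx1as and Cort fall outside this rule and were singled out after their values were seen. The 5 genes with the highest r were named for Dlx6os1 and for Dlx1, leaving out clone and predicted names, and 1 of those for Dlx1 is not reported here. Alternatives were DESeq2 1.42.0 (its size factors, and its own test), limma-voom and limma-trend on log2(RPKM + 0.1) or log2(RPKM + 1) with limma 3.58.1, other filters and covariates, TMM without chromosome 16, a replicate block, the compared groups alone, and leaving out each library. Chosen after seeing the data were a fit without the 3 libraries that had least choroid plexus RNA by its markers, and covariates for choroid plexus level, thalamus level and the slope on transcript length.

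Replicate numbers did not pair the mice. Deviations from the group means correlated at 0.0772 on average in 16 same-numbered pairs (-0.216 to 0.471) and at -0.0141 in the remaining pairs.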

Additional observations from a re-analysis of the deposited data

How the results depend on the processing

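For Dlx6os1, the direction against WT was kept in all 34 alternatives of each comparison, and the lost calls are given above. These alternatives reuse the values that chose the gene, so nothing is read from the kept direction. The count of the 9 genes called in Dp16 against WT was 0 in place of 1 with the identifier series, with only the groups compared, with the slope on transcript length and with the thalamus level, and 0 to 1 when leaving out 1 library. Between Dp16_2xIFNRs and Dp16, the Dlx6os1 level per mouse differed by 0.12, by 0.1466 on log2(RPKM + 0.1), and by 0.0945 to 0.1479 when leaving out 1 mouse. Its log2 difference between males and females, 0.00, was -0.0067 and -0.0043 on log2 RPKM with 0.1 and 1 added, -0.04 without the 3 libraries low in choroid plexus, -0.0386 with the choroid plexus level, -0.0014 with the slope on transcript length, and -0.0523 to 0.0557 when leaving out 1 mouse. The cause was not tested in any of these.

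Genes called over the whole table numbered 102 in Dp16 against WT (217 by DESeq2, 81 to 112 when leaving out 1 library). In Dp16_2xIFNRs against WT they numbered 186, with 633 by DESeq2, 416 without a filter, 114 with only the groups compared, 348 with the choroid plexus level and 287 with the thalamus level. Leaving out 1 library there gave 101 to 517, with 433 without WT replicate 4, and 517, 119 and 101 without Dp16_2xIFNRs replicate 1, 2 or 3. In Dp16_2xIFNRs against Dp16 there were 3, with 6 by DESeq2, 14 without a filter and 3 to 4 when leaving out 1 library. In male against female there were 13, with 20 by DESeq2 and 12 to 14 when leaving out 1 library.

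Of the context lists, edgeR called 0 genes in Dp16 against WT. DESeq2 called 2 (Cort and Gfap, higher), the fit without a filter 1 (Pvalb, lower), the fit without the 3 libraries low in choroid plexus 1 (Cort, higher), and leaving out 1 library gave 0 to 1 (Cort without WT replicate 6). In Dp16_2xIFNRs against WT, edgeR called 0. DESeq2 called 4 (Meis2, Nr2f1, Pvalb and Sox4, lower), the fit without a filter 4 (Meis2, Nr2f1, Pvalb and Rora, lower), the choroid plexus level 2 (Nr2f1 lower and Sostdc1 higher), the thalamus level 3 (Nr2f1, P2ry12 and Sox4, lower), and leaving out 1 library gave 0 to 3. The replicate block called 104 genes in Dp16 against WT, 152 in Dp16_2xIFNRs against WT and 4 in Dp16_2xIFNRs against Dp16, and 5 of 17 libraries correlated best with one of their own number. The order of the 9 genes by RPKM held for 9 of 9 with TMM factors. Depth limits Dlx5, Dlx2 and Dlx6 most, with counting errors of 9.73%, 7.88% and 7.44%.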
